A study of Mus musculus with 18 samples.

Results

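The response of wild type macrophages to oxidized LDL (Ox-LDL) was read from 6 RNA-Seq libraries, 3 of BM-derived macrophages kept with Ox-LDL and 3 of cells of the same mice kept in control medium, out of 18 libraries in all. These 6 were chosen by their labels (wild type, Ox-LDL or control), and every gene that passed a filter on low counts was described, 12290 of 31053 listed. The mice were 12 weeks old, on a C57Bl/6J background, and carried an intact *Slc7a7* gene (*Slc7a7*+/+). They were the controls of mice in which *Slc7a7*, the light chain of a transporter of cationic and neutral amino acids, was deleted with LysM-Cre, a recombinase expressed from the lysozyme M locus in myeloid cells. BM cells were differentiated for 7 days, 100000 cells were seeded, and they were kept for 24 h with 100 µg/mL of Ox-LDL or with vehicle. The other 12 libraries held the same mice's cells with 50 µg/mL of acetylated LDL (Ac-LDL) and the cells of 3 *Slc7a7*-/- mice in each of these media.

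Macrophages bind oxidized or acetylated LDL with scavenger receptors. Sterols reaching the endoplasmic reticulum hold back the transcription factor SREBP2, which drives cholesterol synthesis, whereas oxysterols activate the nuclear receptors LXRα and LXRβ, which drive cholesterol efflux. Oxidized lipids also activate the nuclear receptor PPARγ and, through the sensor KEAP1, the transcription factor NRF2, whose targets are antioxidant enzymes. NF-kB and the interferon pathway carry the signals of Toll-like receptors, and their target genes include several of their own inhibitors.

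Total counts in the 6 libraries were between 1067282 and 1603061, and levels are given in CPM, that is, relative to the effective size of each library. An observed 0 allows a true level of up to 3 counts, or 1.87 to 2.81 CPM, as far as counting error of reads alone is concerned. Of the counts, *Gm26917*, a noncoding RNA, held 6.605% to 11.003%. All 12 macrophage markers were detected in each of the 6 libraries. Their summed level (here without TMM scaling) was 26530 to 35390 CPM in control and 22580 to 31570 CPM with Ox-LDL. Most of this sum was *Lyz2*, at 20690 to 27290 CPM in control and 15710 to 25110 CPM with Ox-LDL. Markers of dendritic, lymphoid, erythroid, mast and basophilic cells summed to at most 2.09 CPM. Stromal markers summed to 1.87 to 18.1 CPM in control and 2.50 to 35.3 CPM with Ox-LDL, with 0 of 4 tested past the threshold. The summed level of neutrophil markers was 77.2 to 135 CPM in control and 153 to 258 CPM with Ox-LDL. Of 11 such markers 9 were detected in any library and 2 of 8 tested passed (*S100a9* and *Ngp*, both granule or cytosolic proteins of neutrophils), while *Ly6g* and *Retnlg* were at 0 in all 6. In bulk RNA, fewer cells of a type and less RNA per cell cannot be told apart. *Slc7a7* itself was at 11.1, 12.6 and 21.1 CPM in control and at 28.6, 25.9 and 29.3 CPM with Ox-LDL in mice 1, 2 and 3, a log2 difference of 0.89 ± 0.28 (SE) that did not pass (edgeR adjusted p = 0.0619). In the knockout it was between 4.33 and 10.2 CPM in control and between 8.66 and 10.9 CPM with Ox-LDL.

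Of 12290 genes tested, 540 passed (4.39%; edgeR quasi-likelihood test with the mouse as a block, Benjamini-Hochberg adjusted p under 0.05), 188 higher (1.53%) and 352 lower (2.86%) with Ox-LDL. Genes that fell did so by more than those that rose: the median size was 0.77 on the log2 scale for the lower and 0.62 for the higher genes, and 35 lower against 6 higher genes differed by more than 4-fold. Of the genes that passed, 184 of 188 were higher and 348 of 352 lower in each of the 3 mice. The 3 libraries of one medium lay wholly above or below the other 3 for 125 of the 188 higher and 224 of the 352 lower genes, against 5.67% (higher) and 6.19% (lower) of all genes tested. These genes were picked by a test on the same libraries, so this and the shared direction in the mice are a description and no separate support. Without the mouse as a block 34 genes were higher and 131 lower. The count fell to 335 without the control library of mouse 2, to 325 without mouse 2 and to 334 without mouse 3, and it was between 377 and 596 when another library or mouse was left out.

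**Figure D1:**
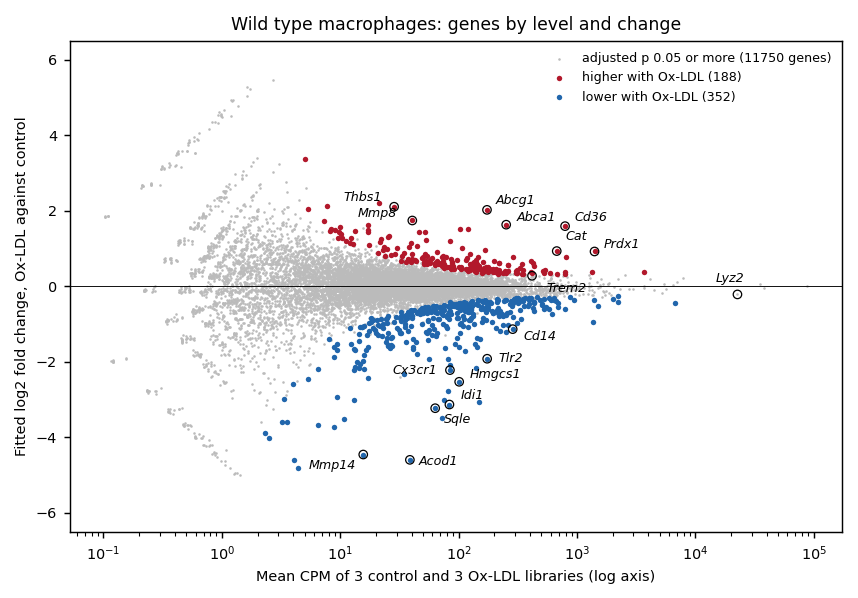
Each point is a gene, with its mean level in the 6 libraries (CPM, log axis) and its fitted log2 fold change of Ox-LDL against control; red and blue mark the 188 higher and 352 lower genes that passed, and rings mark the genes named. The largest falls among genes of a moderate or high level are *Acod1* and sterol synthesis genes.

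Most genes of cholesterol synthesis fell. Of 20 genes that encode the enzymes from acetyl-CoA to cholesterol, 17 were lower with Ox-LDL and 0 higher, with a median log2 fold change of -2.04, beside 0.00657 over all genes tested. Without the block 16 were lower. In order of the pathway, *Hmgcs1*, which makes HMG-CoA, was at 169, 178 and 171 CPM in control and at 23.3, 25.9 and 39.7 CPM with Ox-LDL. The libraries did not overlap between media, and the difference was 5.79-fold (log2 -2.53 ± 0.16, SE; edgeR adjusted p = 6.09e-14).

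*Idi1*, the isomerase that makes the second isoprenoid building block, fell from 160, 137 and 153 CPM to 21.5, 17.3 and 13.02 CPM (8.78-fold). *Fdps*, which joins these blocks to farnesyl pyrophosphate, fell 8.09-fold, and *Mvd*, the decarboxylase before *Idi1*, fell 8.12-fold. At the branch to sterols, *Fdft1* (squalene synthase) fell 3.80-fold. *Sqle*, the squalene epoxidase that is the second control point of the pathway, fell from 104, 121 and 118 CPM to 14.3, 11.1 and 11.7 CPM, or 9.40-fold. Behind it, *Lss* fell 3.11-fold, *Cyp51* 6.90-fold, *Msmo1* 4.46-fold, *Nsdhl* 3.54-fold and *Hsd17b7* 5.36-fold. The fitted fall was larger at *Idi1* and *Sqle* than at *Lss* and *Nsdhl*, a difference between genes that was not tested.

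*Acat2*, a cytosolic thiolase that starts the pathway, had 19, 21 and 24 counts in control and 0, 2 and 3 counts with Ox-LDL, a ratio of the summed counts of 13.8 with a 95% counting interval of 5.61 to 43.9. *Mvk*, *Sc5d* and *Dhcr7* also passed (log2 -1.44, -1.24 and -1.17), but not without mouse 3 (adjusted p = 0.055, 0.062 and 0.46), and *Mvk* had an adjusted p of 0.055 without the Ox-LDL library of this mouse. For *Dhcr7* it was 0.062 without the control library of mouse 2, 0.055 without mouse 2, 0.26 without the control and 0.36 without the Ox-LDL library of mouse 3. Of the 3 members that did not pass, *Pmvk* had a log2 difference of -1.04 (adjusted p = 0.086), *Tm7sf2* of -0.22 and *Ebp* of -0.02. *Tm7sf2* and *Ebp* encode a sterol reductase and a sterol isomerase.

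Of 12 genes in a list of SREBP regulators and sterol carriers, 4 were lower and 1 higher, with a median of -0.13. *Srebf2*, which encodes SREBP2 and is its own target, fell from 202, 227 and 221 CPM to 57.3, 77.7 and 74.9 CPM (3.08-fold). *Insig1*, an SREBP target whose product keeps SREBP in the endoplasmic reticulum, fell 3.78-fold, and *Stard4*, a carrier of cholesterol between membranes, fell 3.03-fold. *Mylip*, an E3 ubiquitin ligase, rose from 43.6, 47.4 and 61.1 CPM to 133, 108 and 115 CPM (log2 1.20 ± 0.14). In each mouse *Srebf2* and *Mylip* thus moved in opposite directions. *Srebf1* (log2 -0.41, adjusted p = 0.20) and *Npc1* (log2 0.22, adjusted p = 0.24), which carries cholesterol out of lysosomes, did not pass.

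Cholesterol efflux genes rose in part. Of 11 genes tested in a list of LXR-driven efflux, 4 were higher, 1 was lower and 6 did not pass, with a median of 0.24. *Abca1*, which loads cholesterol onto apolipoprotein A-I, was at 60.3, 153 and 155 CPM in control and at 335, 439 and 371 CPM with Ox-LDL (3.09-fold). *Abcg1*, which exports cholesterol to HDL, rose from 46.4, 97.0 and 61.1 CPM to 285, 296 and 257 CPM (4.06-fold; log2 2.02 ± 0.15; edgeR adjusted p = 1.63e-12). Mouse 1 had the lowest control level of both transporters and the largest log2 rise. *Arl4c*, a small GTPase, rose 1.57-fold, and *Mylip*, also an LXR target, is the fourth. *Nr1h3*, which encodes LXRα, fell 1.85-fold, from 40.8, 44.6 and 50.2 CPM to 30.4, 22.2 and 22.1 CPM, a call that did not pass without the control library of mouse 3 (adjusted p = 0.058), without mouse 2 (0.056) or without mouse 3 (0.099). *Apoe* did not pass (log2 0.30, adjusted p = 0.17).

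**Figure D2:**
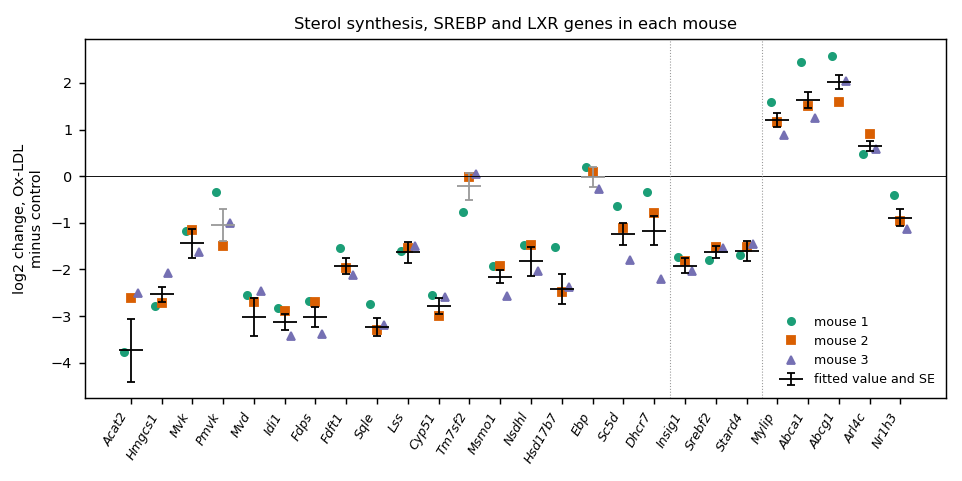
The difference in log2 CPM between Ox-LDL and control is drawn for each mouse (coloured points) with the fitted value and its SE (bars, grey where the adjusted p was 0.05 or more). Sterol synthesis genes (18 of the list) stand left of the first dotted line in pathway order, *Insig1*, *Srebf2* and *Stard4* come next at -1.6 or lower, and *Mylip* and the LXR genes stand on the right, with *Abcg1* highest.

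The sequences before the start of 4 sterol synthesis genes and of *Mylip* are shown because these genes moved together and in opposite directions. They are from RefSeq (GRCm38.p6), 250 bases before the start that RefSeq annotates, 5′ to 3′ on the gene's strand, with capitals marking the SREBP2 element TCACNCCAC and the CCAAT box, CCAAT, the site of NF-Y, on either strand.
*Hmgcs1*, chr13:119690101-119690350, plus strand: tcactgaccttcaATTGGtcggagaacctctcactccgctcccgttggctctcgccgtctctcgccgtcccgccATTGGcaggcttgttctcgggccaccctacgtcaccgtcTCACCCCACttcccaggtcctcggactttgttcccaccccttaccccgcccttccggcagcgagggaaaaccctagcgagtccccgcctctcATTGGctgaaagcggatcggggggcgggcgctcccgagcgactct
*Idi1*, chr13:8885356-8885605, plus strand: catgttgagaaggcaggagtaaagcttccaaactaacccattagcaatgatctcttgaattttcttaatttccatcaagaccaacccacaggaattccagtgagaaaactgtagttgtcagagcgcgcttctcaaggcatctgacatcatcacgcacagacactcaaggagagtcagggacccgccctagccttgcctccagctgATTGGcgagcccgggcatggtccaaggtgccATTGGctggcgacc
*Cyp51*, chr5:4104698-4104947, minus strand: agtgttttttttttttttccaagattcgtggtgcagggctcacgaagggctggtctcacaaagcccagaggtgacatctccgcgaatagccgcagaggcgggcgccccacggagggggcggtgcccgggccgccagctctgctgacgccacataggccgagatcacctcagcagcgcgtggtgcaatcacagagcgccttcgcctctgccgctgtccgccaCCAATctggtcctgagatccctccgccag
*Msmo1*, chr8:64733579-64733828, minus strand: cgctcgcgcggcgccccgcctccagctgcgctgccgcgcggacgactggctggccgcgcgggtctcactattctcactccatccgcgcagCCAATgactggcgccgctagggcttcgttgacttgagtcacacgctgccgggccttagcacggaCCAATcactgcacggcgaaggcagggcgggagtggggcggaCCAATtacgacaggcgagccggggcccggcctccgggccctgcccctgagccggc
*Mylip*, chr13:45389492-45389741, plus strand: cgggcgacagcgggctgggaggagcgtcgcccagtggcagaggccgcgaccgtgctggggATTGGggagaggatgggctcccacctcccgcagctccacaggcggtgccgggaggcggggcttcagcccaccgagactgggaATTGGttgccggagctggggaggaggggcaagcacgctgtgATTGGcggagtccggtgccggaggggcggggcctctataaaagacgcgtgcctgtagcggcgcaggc

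Of the 17 sterol synthesis genes that fell, 12 had a promoter entry, and 11 of these held CCAAT within 250 bases of a start (some have several starts), as did 33.8% of all 32851 promoters. The element TCACNCCAC was found in 1 of the 12, *Hmgcs1*, 137 bases before the start, and in 1.05% of all promoters. *Mylip* holds 3 CCAAT boxes, so this motif does not separate it from genes that fell. Positions are relative to RefSeq's start. The outermost GENCODE start lies inside the window for *Idi1*, *Cyp51* and *Msmo1* (105, 49 and 214 bases before RefSeq's), so that all their marked boxes lie after it. The matches are a description of these letters in this window.

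Lipid synthesis beyond sterols was lower in part. Of 16 genes of fatty acid synthesis and desaturation, 5 were lower and 0 higher, with a median log2 fold change of -0.64. *Fads2*, the Δ6-desaturase of polyunsaturated fatty acids, fell from 23.2, 21.6 and 14.6 CPM to 4.47, 1.23 and 0 CPM, with a ratio of summed counts of 11.7 (95% counting interval 5.41 to 30.1). *Fasn*, fatty acid synthase, fell 2.44-fold, *Scd2*, a stearoyl-CoA desaturase, 2.17-fold, and *Acly*, which supplies cytosolic acetyl-CoA to both pathways, 1.61-fold. *Acsl1*, which activates fatty acids, had a log2 difference of -0.75 and did not pass without mouse 3 (adjusted p = 0.090).

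Uptake genes did not move as a group. Among 12 scavenger receptors tested, 3 were higher and 2 lower (1 and 2 without the block), against 1.53% and 2.86% of all genes tested. *Cd36*, the class B receptor of Ox-LDL and a PPARγ target, was at 383, 405 and 392 CPM in control and at 1017, 1423 and 1137 CPM with Ox-LDL (3.01-fold; log2 1.59 ± 0.10; edgeR adjusted p = 6.09e-14). *Msr1*, the class A receptor, rose from 395, 250 and 372 CPM to 524, 461 and 550 CPM (1.53-fold). *Cxcl16*, a membrane-bound chemokine that also binds Ox-LDL, fell from 230, 303 and 315 CPM to 118, 136 and 139 CPM (2.15-fold), and *Scarb1*, the HDL receptor, fell from 109, 110 and 102 CPM to 61.7, 64.1 and 49.5 CPM (1.84-fold). The libraries of these 4 receptors did not overlap between media. *Lrp1* (log2 0.29) and *Cd68* (log2 0.10) did not pass.

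Of 23 PPAR targets and lipid droplet genes, 3 were higher and 0 lower, with a median of 0.07. Over all genes tested, 1.53% were higher and 2.86% lower. Only *Cd36* passed without the block. *Plin2*, the coat protein of lipid droplets, was one of the 3 (log2 0.35), but its adjusted p was 0.18 without the control library of mouse 1, 0.093 without mouse 1, 0.097 without the Ox-LDL library of mouse 3 and 0.098 without mouse 3. Leaving out that control library, mouse 1 or mouse 3 left 1 gene of the list past the threshold. *Lpl*, *Lipa* and *Soat1*, which release, hydrolyse and esterify lipid, had log2 differences of 0.07, 0.10 and 0.21 that did not pass. Among 20 markers of lipid-associated macrophages, 4 were higher and 0 lower, and 0 without the block. *Mmp12*, a macrophage elastase, was at 129, 114 and 72.8 CPM in control and at 266, 162 and 124 CPM with Ox-LDL (1.72-fold). The count was 2 without the control library of mouse 1, without mouse 1 or without mouse 3. *Trem2*, the lipid receptor that marks these cells, had a log2 difference of 0.28 ± 0.09 (edgeR adjusted p = 0.0815), *Gpnmb* of 0.05 and *Ctsd* of 0.19.

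Antioxidant genes rose in part. Of 26 NRF2 targets, 11 were higher and 1 lower with Ox-LDL (4 and 0 without the block), with a median of 0.38. The count of higher genes was between 8 and 11 when a library or mouse was left out, and that of lower genes was 0 without either library of mouse 2 or 3 or without either mouse. *Cat* (catalase) was at 581, 325 and 494 CPM in control and at 1034, 658 and 952 CPM with Ox-LDL, and *Prdx1* (peroxiredoxin 1) at 1215, 719 and 919 CPM against 2757, 1157.5 and 1668 CPM. Levels differed between mice, and each rose in each mouse, 1.90-fold for *Cat* and 1.89-fold for *Prdx1*. The subunits of the enzyme that limits glutathione synthesis rose, *Gclc* 1.87-fold and *Gclm* 1.72-fold, as did *Gstm1*, a glutathione transferase (1.82-fold), and *Srxn1*, which repairs peroxiredoxins (1.44-fold). *Hmox1*, heme oxygenase 1, rose from 221, 126 and 159 CPM to 443, 174 and 202 CPM (1.54-fold), and *Blvrb*, which reduces biliverdin, 1.52-fold. *Slc40a1* (ferroportin), the exporter of iron, rose from 53.8, 49.5 and 59.0 CPM to 116, 192 and 152 CPM (2.85-fold). *Nfe2l2*, which encodes NRF2, had a log2 difference of -0.16 and *Txnrd1* of 0.32 (adjusted p = 0.0641), and *Ftl1*, ferritin light chain, of 0.20. *Gpx1*, a glutathione peroxidase outside the list, fell 1.57-fold, from 560, 501 and 522 CPM to 425, 260 and 346 CPM.

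The NF-kB genes that fell were mostly inhibitors and the noncanonical subunits. Of 16 genes in this list, 11 were lower and 0 higher, with a median of -0.99. Without the block 9 were lower. *Nfkbia*, the inhibitor IκBα, was at 148, 186 and 202 CPM in control and at 100, 80.7 and 91.2 CPM with Ox-LDL (1.997-fold). *Tnfaip3*, the ubiquitin-editing inhibitor A20, fell from 44.5, 99.1 and 114 CPM to 31.3, 49.9 and 35.8 CPM (2.20-fold), and *Tnip1*, its partner, 1.98-fold. *Nfkb2* and *Relb*, the noncanonical subunits, fell 2.24-fold and 2.57-fold, and *Traf1* and *Birc3*, adaptors of TNF receptors, 3.02-fold and 2.08-fold. The canonical subunits did not pass: *Rela* had a log2 difference of -0.11, *Nfkb1* of -0.26 and *Rel* of -0.13.

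Among Toll-like receptors and adaptors, 5 of 19 were lower and 1 higher (2 and 0 without the block), against 2.86% and 1.53% of all genes tested. *Tlr2*, the receptor of bacterial lipopeptides, fell from 232, 246 and 351 CPM to 51.9, 74.0 and 90.5 CPM (3.79-fold; log2 -1.92 ± 0.11; edgeR adjusted p = 9.91e-15). *Cd14*, the co-receptor of lipopolysaccharide, fell from 214, 597 and 367 CPM to 93.05, 285 and 161 CPM (2.20-fold). Here the libraries overlapped between media, since mouse 2 was highest in both, but the fall was of like size in each mouse. *Tlr4* had a log2 difference of 0.04, *Tlr7* of 0.20 and *Tlr8* of 0.29, and none of these 3 passed. The count of lower genes in this list was 2 without the control library of mouse 2 or without mouse 2, and 3 without the Ox-LDL library of mouse 3 or without mouse 3.

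**Figure D3:**
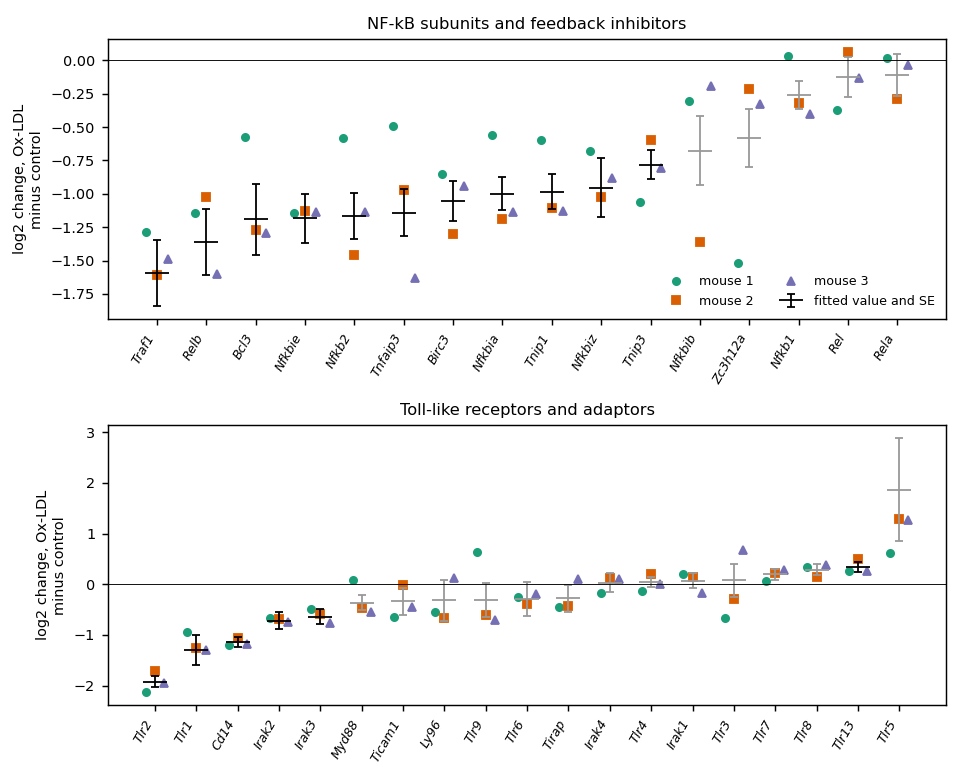
For the 16 NF-kB genes (top) and the 19 Toll-like receptors and adaptors (bottom), points give the difference in log2 CPM between Ox-LDL and control in each mouse, and bars the fitted value with its SE (grey where the adjusted p was 0.05 or more). *Rela*, *Rel* and *Nfkb1* lie nearest to 0 in the top panel, and *Tlr2* is lowest in the bottom panel.

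Some inflammatory cytokine and chemokine genes were lower, with a median log2 fold change of -0.61 in each of the 2 lists. Over all genes tested, the median was 0.00657 and 2.86% were lower. *Acod1*, which makes itaconate, was at 41.7, 85.1 and 96.1 CPM in control and at 4.47, 1.85 and 3.26 CPM with Ox-LDL, with a ratio of summed counts of 24.8 (95% counting interval 14.3 to 47.1; log2 -4.60 ± 0.34; edgeR adjusted p = 2.59e-12). Of the 11 genes tested among inflammatory cytokines and itaconate, *Tnf* (log2 -0.92) was the other one that passed, and it did not without the Ox-LDL library of mouse 2 (adjusted p = 0.18), the control library of mouse 3 (0.054) or mouse 2 (0.16). *Il1b* was at or below 1.85 CPM in all 6 libraries, less than 3 counts are worth in a library of this depth. Of 17 chemokines and receptors, 5 were lower and 0 higher (3 without the block, 3 without the control library of mouse 2, 2 without mouse 2). *Cx3cr1*, the fractalkine receptor, fell from 151, 141 and 124 CPM to 40.3, 22.8 and 28.0 CPM (4.67-fold). *Gpr84*, a receptor of medium-chain fatty acids that is induced by inflammatory signals, fell from 18.5, 16.04 and 15.3 CPM to 1.79, 1.85 and 2.60 CPM, with a ratio of summed counts of 7.66 (95% counting interval 3.80 to 17.5), and *Ptger4*, a prostaglandin E2 receptor, fell 2.47-fold. *Junb* and *Fos*, AP-1 subunits, fell 1.67-fold and 1.58-fold, while 23 of 27 immediate early genes did not pass. The 2 others of this list were higher, *Jun*, also an AP-1 subunit, and *Atf3* (log2 0.377 and 0.446). The count of higher genes was 0 to 1 when a library or mouse was left out.

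Many interferon-stimulated genes were lower with Ox-LDL, from starting levels that differed between mice. Of 36 genes, 20 were lower and 0 higher, with a median log2 fold change of -1.05. The libraries of the 2 media did not overlap for 2 of the 36 genes (lower with Ox-LDL), a share near the 6.19% of all genes tested. *Ifit3*, an antiviral RNA-binding protein, was at 7.42, 35.6 and 21.1 CPM in mice 1, 2 and 3 in control and at 0.895, 9.86 and 3.26 CPM with Ox-LDL. *Rsad2* (viperin) was at 8.34, 50.9 and 19.7 CPM against 0.895, 11.1 and 5.21 CPM. For both, mouse 2 with Ox-LDL was above mouse 1 in control. *Ddx58* (RIG-I), a sensor of viral RNA, was at 33.4, 93.5 and 69.2 CPM against 16.1, 50.5 and 31.9 CPM (1.996-fold).

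This result rests on the pairing: without the mouse as a block 1 of the 36 passed, and DESeq2 with the block called 12. The count was 13 without the control library of mouse 2 or without mouse 3, and between 14 and 18 when another library or mouse was left out. *Ifit1*, *Ifi27l2a*, *Oas1a*, *Slfn5* and *Parp14* passed with any 1 library or mouse left out, as did the 3 genes above (log2 from -2.05 for *Ifit1* to -0.71 for *Parp14*). *Irf7*, the amplifying transcription factor of the pathway, had a log2 difference of -1.33 but did not pass without the control (adjusted p = 0.10) or the Ox-LDL library (0.13) of mouse 2, or without mouse 2 (0.23).

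**Figure D4:**
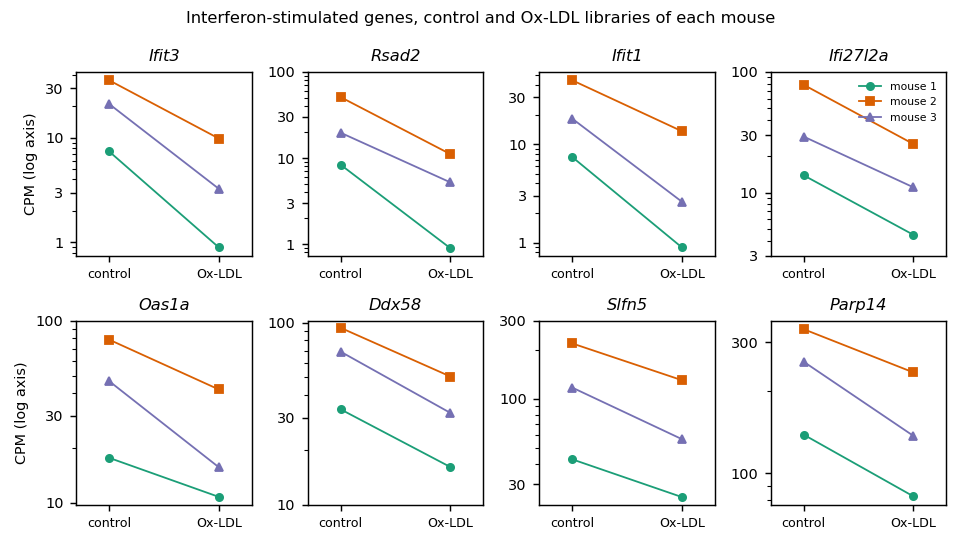
Levels (CPM, log axis) of 8 interferon-stimulated genes are joined between the control and the Ox-LDL library of each mouse. Each line falls, and the order of the mice, with mouse 2 highest and mouse 1 lowest, is the same in both media.

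Some genes of antigen presentation and complement were lower. Of 18 MHC and co-stimulation genes, 7 were lower and 0 higher (2 lower without the block), against 2.86% lower of all genes tested. *H2-K1*, a class I heavy chain, fell from 561, 801 and 734 CPM to 419, 534 and 427 CPM (1.52-fold), and *Tapbp* (tapasin), which loads peptides onto it, 1.59-fold. *H2-D1* had a log2 difference of -0.13 that did not pass. The count was 4 without the Ox-LDL library of mouse 2 or 3, the control library of mouse 3 or mouse 2, and 2 without mouse 3. *C3*, the central complement component, fell from 66.8, 265 and 189 CPM to 24.2, 75.8 and 56.7 CPM (3.28-fold). *C1qa* fell 1.69-fold but had an adjusted p of 0.055 without mouse 2, and *C1qb* (log2 -0.30) and *C1qc* (log2 -0.20) did not pass.

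Matrix genes went in both directions, with 4 of 19 higher and 2 lower (1 and 2 without the block). The shares of all genes tested were 1.53% and 2.86%. *Mmp14*, a membrane-bound collagenase, fell from 14.8, 43.3 and 32.0 CPM to 0, 3.08 and 0.651 CPM, with a ratio of summed counts of 21.9 and a 95% counting interval of 9.78 to 60.9. *Adam17*, the protease that sheds TNF, fell from 322, 532 and 461 CPM to 183, 288 and 246 CPM (1.83-fold). *Thbs1*, thrombospondin 1, a ligand of CD36, rose from 6.49, 11.9 and 13.8 CPM to 29.5, 57.3 and 52.1 CPM (4.30-fold; log2 2.10 ± 0.28; edgeR adjusted p = 2.49e-06). *Mmp8* rose from 23.2, 6.98 and 26.9 CPM to 76.9, 40.7 and 69.0 CPM (3.34-fold). It is also called neutrophil collagenase, and its rise stands beside that of the neutrophil markers. *S100a9* was at 51.9, 30.7 and 14.6 CPM in control and 111, 43.8 and 67.7 CPM with Ox-LDL, and *Ngp* at 29.7, 23.0 and 22.6 CPM against 59.9, 40.1 and 54.0 CPM, with an adjusted p for *Ngp* of 0.30 without the Ox-LDL library of mouse 3, 0.080 and 0.10 without the control library of mouse 1 or 2, and 0.085 without mouse 3. In knockout cells *Mmp8* rose (log2 1.62), and *S100a9* and *Ngp* did not pass (log2 0.19 and -0.34). The part of neutrophil RNA in the rise of *Mmp8* in wild type cells was not tested.

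Other genes among the largest changes had varied roles. *Rgs1*, which dampens chemokine receptor signals, rose from 61.2, 85.8 and 38.6 CPM to 203, 210 and 120 CPM (2.87-fold), and *Dusp6*, a phosphatase of ERK, from 31.5, 18.8 and 24.02 CPM to 82.3, 63.5 and 56.0 CPM (2.72-fold). *Chn2*, a GTPase-activating protein for Rac, rose 2.79-fold, and *Pir*, an iron-binding nuclear protein, 2.74-fold. *Tmem176a* and *Tmem176b*, neighbouring genes of membrane proteins, both fell, *Tmem176b* 4.97-fold and *Tmem176a* to 0, 2.47 and 0 CPM, with a ratio of summed counts of 13.5 (95% counting interval 4.95 to 51.4), and *Pilra*, an inhibitory receptor, fell 4.40-fold, from 11.1, 23.0 and 31.3 CPM to 0.895, 4.93 and 8.46 CPM. *Gm49369* was higher (log2 2.20), but all its exon bases overlap those of *Ifitm10* and *Ctsd* on the same strand, so that its reads cannot be told from theirs, and it did not pass without the control library of mouse 2 (adjusted p = 0.076). The same holds for the exons of *Gm49383*, which shares them with *Rpl36al* and *Dnaaf2* among others, and which passed in neither the fit without the control library of mouse 2 (adjusted p = 0.18) nor 5 more of these fits. Of the genes above, *Fdps* shares 26.7% of its exon bases with a gene on its own strand, and *Gpr84* 39.5%, *Tapbp* 24.9%, *Fdft1* 18.3%, *Cxcl16* 18.3%, *Pilra* 15.1% and *Hmgcs1* 12.1% with genes on the other strand, which could have received some of the reads; shares under 12% are left out.

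Some genes of macrophage identity were lower with Ox-LDL. Of the 12 macrophage markers 1 was higher and 5 lower. *Adgre1*, which encodes F4/80, had a log2 difference of -0.53 ± 0.10 (edgeR adjusted p = 0.000459) and *Csf1r*, the M-CSF receptor, of -0.41 ± 0.09 (adjusted p = 0.00428, but 0.11 without the control library of mouse 3 and 0.13 without mouse 3). *Lyz2*, from which LysM-Cre is driven in the knockout, was at 20469, 23625 and 28551 CPM in control and at 22707, 15519.6 and 25125 CPM with Ox-LDL, a difference that did not pass (log2 -0.22, adjusted p = 0.325).

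The comparison with Ac-LDL asks which of these differences depend on the kind of modified LDL. Doses differed (100 against 50 µg/mL), so that the kind of LDL and its dose cannot be told apart, and both comparisons share the Ox-LDL libraries. Directly compared, 90 genes passed (0.732%; edgeR with the mouse as a block), 46 higher (0.374%) and 44 lower (0.358%) with Ox-LDL than with Ac-LDL. Without the block 1 gene passed, and 51 did without mouse 3. Of the 188 genes higher with Ox-LDL than in control, 31 were also higher than with Ac-LDL and 0 lower, and of the 352 lower ones 32 were also lower and 0 higher.

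Sterol genes were low with both. For the 17 that fell with Ox-LDL, the log2 difference between Ox-LDL and Ac-LDL had a median of -0.18. Of all 20 synthesis genes 0 passed between the LDLs by edgeR and 0 by DESeq2. By edgeR 6 of the 20 had an unadjusted p under 0.05, beside 1088 of all 12290 genes tested. Without the Ox-LDL library of mouse 1 or without mouse 1, 1 was higher and 1 lower. *Srebf2* was at 54.0, 63.4 and 66.6 CPM with Ac-LDL, and its difference was 0.19 with a 95% interval of -0.11 to 0.50. *Sqle* was at 15.2, 22.9 and 21.7 CPM, with a difference of -0.73 that did not pass (edgeR adjusted p = 0.32; interval -1.27 to -0.19). *Abcg1* was at 256, 305 and 225 CPM with Ac-LDL, with a difference of 0.10 (interval -0.15 to 0.35). For *Abca1*, at 487, 513 and 510 CPM with Ac-LDL, the difference of -0.41 did not pass (adjusted p = 0.35), and the interval was -0.72 to -0.10.

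Part of the NRF2 targets were higher with Ox-LDL than with Ac-LDL. Of 26 tested, 12 were higher and 0 lower (0 and 0 without the block, 6 and 0 without mouse 1 or without mouse 3), and the median log2 difference of Ac-LDL from control was -0.02. *Cat* was at 585, 372 and 501 CPM with Ac-LDL, so that the libraries of control and Ac-LDL lay within the same range (Ox-LDL minus Ac-LDL, log2 0.86 ± 0.10; edgeR adjusted p = 8.43e-07). *Prdx1* (log2 0.91 ± 0.11) and *Srxn1* (log2 0.78 ± 0.11) were also higher with Ox-LDL than with Ac-LDL in each mouse. *Srxn1* was at 116, 97.4 and 87.6 CPM with Ac-LDL and at 136, 104 and 118 CPM in control. This difference of Ac-LDL from control did not pass (log2 -0.25, edgeR adjusted p = 0.375). *Slc7a11*, the cystine transporter, was higher than with Ac-LDL (log2 1.79 ± 0.42, adjusted p = 0.025) without passing against control. It did not pass between the LDLs without the Ox-LDL library of mouse 1 (adjusted p = 0.19), mouse 1 (0.19) or mouse 3 (0.17). *Cd36* was between, at 583, 753 and 598 CPM with Ac-LDL (Ox-LDL minus Ac-LDL, log2 0.88 ± 0.10).

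Among the genes lowered by Ox-LDL, *Cx3cr1* was at 108, 91.5 and 98.5 CPM with Ac-LDL (Ox-LDL minus Ac-LDL, log2 -1.74 ± 0.19; edgeR adjusted p = 7.60e-07), *Tlr2* at 123, 133 and 153 CPM (log2 -0.91 ± 0.12) and *Clec12a*, an inhibitory lectin, at 278, 443 and 344 CPM (log2 -0.76 ± 0.10). *Clec12a* was at 274, 483 and 342 CPM in control and 152, 234 and 238 CPM with Ox-LDL, so that Ac-LDL and control lay together. Of the 16 NF-kB genes 0 passed between the LDLs by edgeR and 0 by DESeq2, and 1 was lower without the Ox-LDL library of mouse 1. By edgeR 5 of the 16 had an unadjusted p under 0.05, beside 1088 of all 12290 genes tested. The median difference of Ac-LDL from control in this list was -0.71. Of the 36 interferon-stimulated genes 7 were lower with Ox-LDL than with Ac-LDL, among them *Ifit3* (log2 -2.12) and *Parp14* (log2 -0.57). This count was 0 without the block, 4 and 3 without the Ox-LDL library of mouse 2 and of mouse 3, and 1 without mouse 2 or without mouse 3, where neither *Ifit3* (adjusted p = 0.17 and 0.079) nor *Parp14* (0.058 and 0.14) passed. *Parp14* also had an adjusted p of 0.095 without the Ox-LDL library of mouse 3. Of 14 complement genes 4 were lower with Ox-LDL than with Ac-LDL, against 0.358% of all genes tested. Among them were *C1qb* (log2 -0.62) and *C1qc* (log2 -0.48), which did not pass against control. The complement count was 0 without the block and 1 without mouse 1. *Mmp8* (log2 1.72) and *Pla2g7* (log2 0.90), a lipoprotein-associated phospholipase that hydrolyses oxidized phospholipids, were higher with Ox-LDL than with Ac-LDL.

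**Figure D5:**
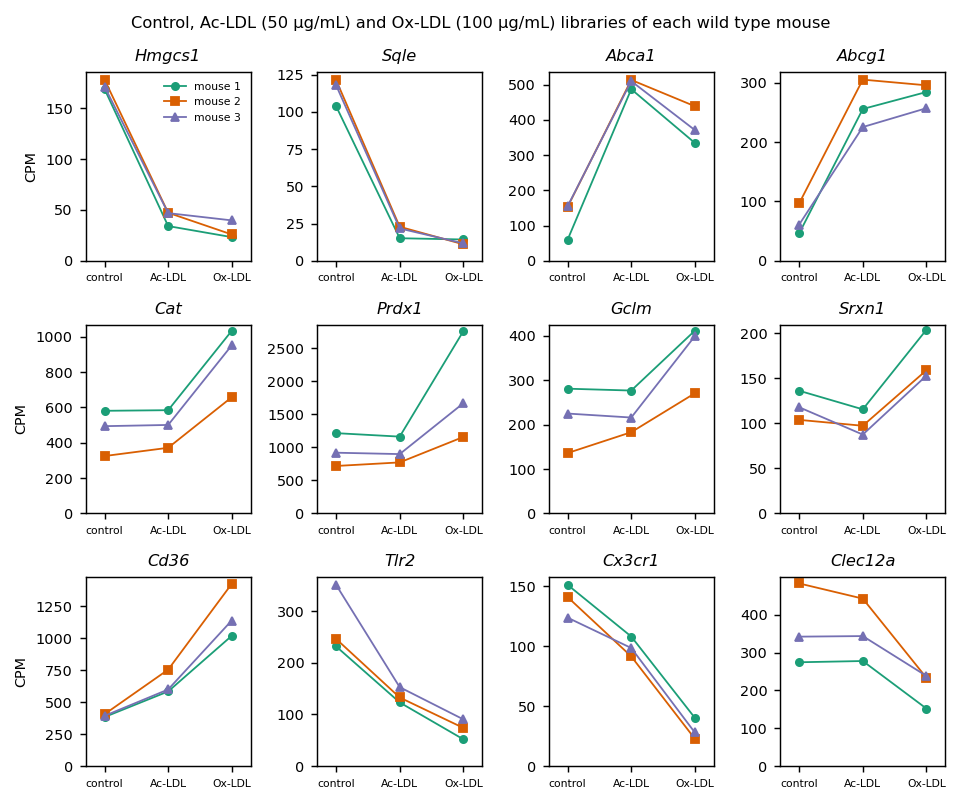
Levels (CPM, axes from 0) of 12 genes in the control, Ac-LDL and Ox-LDL library of each wild type mouse, joined by mouse; doses of the LDLs differed. *Hmgcs1*, *Sqle*, *Abca1* and *Abcg1* differ from control with both LDLs, *Cat*, *Prdx1*, *Gclm*, *Srxn1* and *Clec12a* with Ox-LDL, and *Cd36*, *Tlr2* and *Cx3cr1* have intermediate values with Ac-LDL.

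The response to Ox-LDL was also compared with that of *Slc7a7*-/- cells, from other mice. By the interaction of genotype and Ox-LDL, 0 genes passed (0%; edgeR), 496 had an unadjusted p under 0.05 (4.04%), and DESeq2 called 2. In the knockout, 883 genes passed against its own control (7.18%), 291 higher (2.37%) and 592 lower (4.82%). Of the 188 genes higher in wild type cells 120 were also called higher in the knockout, which is 41.2% of its 291, and of the 352 lower ones 295 were also called lower, 49.8% of its 592. *Abcg1* (log2 1.72), *Cd36* (1.58), *Acod1* (-4.25) and *Cx3cr1* (-1.99) differed from control in the knockout as well.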

How the data were processed

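RNA-Seq was done on BM-derived macrophages of 6 mice, each in 3 media (18 libraries). The authors used a stranded total RNA kit with single-end reads, trimmed with Trim Galore, aligned to mm10 with STAR in the nf-core pipeline and quantified with salmon on the Ensembl transcriptome; the strand setting is not given in the sources used here. The deposited values are salmon's expected counts per gene, neither normalized nor filtered, with 0 columns of other samples.

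Counts were rounded and filtered with filterByExpr (minimum count 2, minimum total 10). edgeR (4.0.16, R 4.3.3) with TMM scaling was fitted to all 18 libraries with a coefficient for each mouse and for each LDL in each genotype, since the labels give a mouse the same number in each medium; deviations of the paired Ox-LDL and control libraries had correlations of 0.483, 0.541 and 0.268. The study's use of DESeq2 stands as an alternative (1.42.0). P-values are from quasi-likelihood tests, two-sided, adjusted by Benjamini-Hochberg over all genes, with a threshold of 0.05, and measure the spread within mice, pooled over the 6 mice of both genotypes and the 3 media. CPM are TMM-scaled. The procedure was tested on simulated data with 200 changed genes. These had a mean of 5 CPM or more and were changed by 0.6 to 2 on the log2 scale. edgeR called 150 of these and 23 unchanged genes, a share of false calls above the threshold. DESeq2 called 124 of these and 3 unchanged genes, a share below the threshold. Of the genes changed by 0.6, edgeR called 42% and DESeq2 20%, and of those changed by 2, 96% and 92%. Other alternatives were no block, 2 other scalings, 2 other filters, fewer libraries in the fit, *Gm26917* taken out, and each library or mouse left out.

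Replicates of the 2 groups were further apart than sampling noise allows (chi-square of 4.18 to 12.7 per degree of freedom) and were kept as separate samples. Named were the 20 largest rises and falls (mean of 5 CPM or more, same direction in 3 mice), *Slc7a7*, *Lyz2* and *Trem2*, members of gene lists past the threshold and up to 5 others, and the 10 genes with the smallest p between LDLs; of these, the text gives those that carry each result. The libraries, lists and rules were chosen with earlier results of these data known. Coordinates and overlaps are from GENCODE M21 (GRCm38). A few members of the lists are not reported here by name. Promoters were matched by symbol, 12 of 17 sterol genes. Figures were drawn with matplotlib 3.10.9.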

Additional observations from a re-analysis of the deposited data

How the results depend on the processing

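The count of genes differing between Ox-LDL and control (540) was 165 with no replicate block, 294 with DESeq2 and 333 in a fit of the 6 libraries alone; leaving out a library or a mouse gave 325 to 596. Scaling by library size alone gave 212 higher and 312 lower genes (a share of higher genes of 40.5% against 34.8%) and moved the median of all genes to 0.03. Between Ox-LDL and Ac-LDL (90) the counts were 1 with no replicate block, 54 with DESeq2, 156 without a filter, 56 with wild type libraries alone and 51 to 108 with a library or mouse left out. The interaction with genotype (0) gave 2 with DESeq2, 17 without a filter and 0 to 9 with a library or mouse left out. The mouse numbers mark the same animal, so the blocked fit is the main one. Of the genes named, 4 that did not pass changed sign: *Ebp* had a log2 difference of 0.0048 with library size alone, and leaving out a library or mouse gave -0.18 to 0.21 for *Ebp*, -0.46 to 0.082 for *Tm7sf2*, -0.026 to 0.18 for *Gpnmb* and -0.056 to 0.11 for *Tlr4*. No gene that passed changed sign under the alternatives run. The causes of these changes were not tested. At 1067282 to 1603061 counts a library, changes of genes of a few CPM could not be sized closely.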

Other observations

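Several housekeeping and growth programmes showed few or no calls between Ox-LDL and control. Over all 12290 genes tested, 1.53% were higher, 2.86% were lower and 1752 had an unadjusted p under 0.05 (edgeR). Of 25 mitosis genes 0 passed by edgeR (2 at an unadjusted p under 0.05) and 0 by DESeq2, but 2 were higher without mouse 1 or its Ox-LDL library and 1 without its control library. Of 31 proteasome genes 0 passed by edgeR (0 at an unadjusted p under 0.05, median log2 -0.01) and 0 by DESeq2. Of 23 genes of DNA replication 1 was higher, *Pcna*, the polymerase clamp (log2 0.41), and of 22 genes of ER chaperones and the unfolded protein response 1 was lower, *Herpud1* (log2 -0.77). Neither passed without mouse 2 (adjusted p = 0.13 and 0.13), mouse 3 (0.26 and 0.22), the control library of mouse 2 (0.15 and 0.12) or 3 (0.21 and 0.29), or any 1 of the Ox-LDL libraries (0.055 to 0.11). Of 21 tested genes of amino acid transport and arginine or glutamine use 0 passed by edgeR (3 at an unadjusted p under 0.05) and 0 by DESeq2, and 1 was higher without the control library of mouse 3. *Slc3a2*, the heavy chain that pairs with the *Slc7a7* product, had a log2 difference of -0.08 and *Slc7a8*, another light chain, of -0.20. Of 44 lysosomal genes 1 was higher and 3 lower, 0 passed without the block, and leaving out a library or mouse gave 0 to 2 higher and 0 to 2 lower, with 0 of either without the control library of mouse 2; *Ctsb* had a log2 difference of -0.06.

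Of 12 tested markers of resident macrophages 5 were higher and 0 lower, against 1.53% and 2.86% of all genes tested. The count of higher markers was 0 without the block and 0 without mouse 2. It was 1 without mouse 3, either library of mouse 2 or the control library of mouse 3. It was 3 without the control library of mouse 1 or the Ox-LDL library of mouse 3. Efferocytosis genes numbered 4 higher and 2 lower of 17, with 2 higher without the block, 2 higher and 0 lower without mouse 2 or its control library, and 2 higher and 1 lower without mouse 3; the 2 largest rises were *Thbs1* and *Cd36*, described above.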
